A study of Homo sapiens with 6 samples.

Results

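Expression of 10 genes that cholangiocytes, the epithelial cells lining the bile ducts, use to secrete chloride, bicarbonate and water and to take up, sense and export bile acids was examined in RNA-seq of TFK1 cells. The genes were chosen by symbol, for these functions, with earlier results of these data known. They are the chloride channels CFTR and ANO1, the bicarbonate transporters SLC4A2 and SLC4A4, the water channel AQP1, the secretin receptor SCTR, the bile acid receptor GPBAR1, the bile acid importer SLC10A2, and SLC51A and SLC51B, which together form the bile acid exporter OSTα-OSTβ. Of the 10, 9 were among the 23569 genes listed in the deposited table, and SLC51A was not listed, nor was any of its RefSeq synonyms. Of the 9, 4 (SLC4A2, SLC51B, SLC4A4 and AQP1) reached the mean of 0.1 FPKM (fragments scaled to gene length and library total) over all libraries that was required for testing, as did 15353 genes in all. The other 5 were listed below it.

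TFK1 is a human cell line from a carcinoma of the extrahepatic bile duct. The lentiviral vector pHAGE carried the STUB1 coding sequence, transduced cells were selected with puromycin, and every sample was labelled as untreated. The vector of the control cells is not given in the sources used here. The control group (oeNC, n = 3) had the genotype negative control, and the other group (oeSTUB1, n = 3) had the genotype STUB1 overexpression. STUB1 is a ubiquitin ligase, and the study asked which genes respond to it through the DNA methylation factors UHRF1 and DNMT1. Each group was, as far as the methods say, 1 stably transduced population. The paper states in general that experiments were independent and done at least 3 times, without naming these libraries. Whether the libraries of a group came from separate cultures is not given. The p-values therefore measure the spread between these libraries, which may be technical.

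In the bile duct, secretin binds its receptor on cholangiocytes and raises cyclic AMP, chloride leaves through the apical channel CFTR, and the exchanger encoded by SLC4A2 returns chloride to the cell in exchange for bicarbonate. Water follows through aquaporins, and bile becomes more alkaline. SLC10A2 carries conjugated bile acids from the duct lumen into the cell, the basolateral exporter OSTα-OSTβ passes them on towards the blood, and both subunits of that exporter are needed for transport. Its genes are well known targets of the bile acid receptor FXR, which is encoded by NR1H4.

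STUB1 itself was the check of the labels. Its level was between 30.9 and 33.0 FPKM in oeNC and between 61.4 and 75 FPKM in oeSTUB1, a log2 fold change of 1.03 ± 0.097 (SE, limma adjusted p = 0.00064), and reads of the introduced coding sequence and of the cell's own gene are not told apart. The libraries held between 33106564 and 36744521 fragments. One library stood apart: oeSTUB1 replicate 2 had a chi-square of 71.1 and 76.7 per degree of freedom against the other oeSTUB1 libraries, beside 3.37 to 9.82 for the other replicate pairs. The difference followed gene length, with a median log2 difference from the other oeSTUB1 libraries of 0.39 in the shortest 10% of tested genes and of -0.46 in the longest 10%. The 4 tested genes of the set are therefore also given without it. Of the 8 cholangiocyte markers, all were measured above the filter. KRT7, a bile duct keratin, was between 482 and 527 FPKM in oeNC and between 587 and 872 FPKM in oeSTUB1, whereas the other bile duct keratin, KRT19, was between 0.374 and 0.529 FPKM in oeNC and between 2.51 and 3.41 FPKM in oeSTUB1. By limma, KRT19 and MUC1 rose, and EPCAM and SPP1 fell. The part of these markers in the results was not tested. ALB, the defining hepatocyte marker, had at most 4 fragments in any library, and the summed hepatocyte markers were between 0.810 and 1.17 FPKM in oeNC and between 0.908 and 1.31 FPKM in oeSTUB1.

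**Figure D1:**
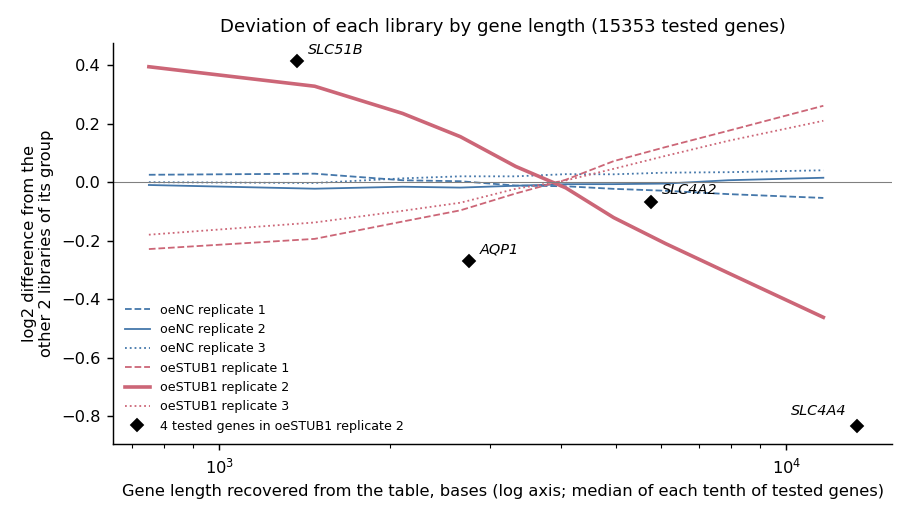
Difference of each library from the other 2 libraries of its group (log2 scale, vertical axis) against gene length in bases (log axis), as the median of each 10% of the 15353 tested genes. Lines are libraries and diamonds are the 4 tested genes in oeSTUB1 replicate 2. The line of oeSTUB1 replicate 2 runs from 0.39 in the shortest genes to -0.46 in the longest, and SLC51B, a short gene, and SLC4A4, the longest of the 4, lie at 0.41 and -0.83.

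Among the 4 genes tested, SLC51B fell in oeSTUB1 and none rose, where 6.59% of all tested genes fell and 7.01% rose at an adjusted p under 0.05 (limma). At an unadjusted p under 0.05 the counts were 1 lower (SLC51B) and 1 higher (SLC4A2). limma-voom on recovered fragments also called 0 higher. In bulk RNA, fewer cells that express a gene and less RNA of it in each cell cannot be told apart. The groups did not overlap for 2 of the 4, SLC4A2 and SLC51B, and for 38.8% of all tested genes. The 5 genes below the filter had 8 fragments or fewer in every library.

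The upstream sequence of the gene that fell is shown beside that of the most abundant gene of the set, because the study concerned methylation of CG sites and because NR1H4, the FXR gene, also fell. Both are the 250 bases before the RefSeq start on GRCh38.p14, on the strand of the gene, with each CG in capitals. SLC51B has 4 CG sites in this window, and 29.3% of all windows have fewer. SLC4A2 has 24 in the first of its 4 windows, the one shown, and 26, 14 and 12 in the others. The median over 35116 windows of the same length is 11. In GENCODE release 29, the last 17 bases of the SLC51B window already belong to an exon.
SLC51B, chr15:65045137-65045386, plus strand: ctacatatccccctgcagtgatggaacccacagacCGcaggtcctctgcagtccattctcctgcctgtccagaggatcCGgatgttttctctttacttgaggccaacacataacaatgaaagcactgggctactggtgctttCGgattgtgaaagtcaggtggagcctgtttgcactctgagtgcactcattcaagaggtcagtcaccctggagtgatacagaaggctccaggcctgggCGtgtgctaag
SLC4A2, chr7:151057950-151058199, plus strand: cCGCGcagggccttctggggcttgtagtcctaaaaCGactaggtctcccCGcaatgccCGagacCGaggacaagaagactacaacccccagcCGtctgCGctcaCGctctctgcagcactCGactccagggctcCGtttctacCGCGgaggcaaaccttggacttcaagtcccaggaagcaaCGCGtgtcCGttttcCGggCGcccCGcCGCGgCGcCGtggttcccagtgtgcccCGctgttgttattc

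FXR binds inverted repeats of a short nuclear receptor site with 1 base between them. The strict form searched for, GGTCANTGACC on both strands, is in 3 of all windows (0.00854%) and in none of the 18 windows of the 10 genes. A looser form, GGTCANTNACC, is in 24 of all windows (0.0683%) and in that of SLC51B, where it overlaps a single nuclear receptor site, AGGTCA, which 12.1% of all windows hold. These looser letters were chosen after the SLC51B window had been read, so the share describes how rare they are and is not a test. The stretch is shown with the match in capitals, and it lies between 63 and 33 bases before the start.
SLC51B, chr15:65045324-65045354, plus strand: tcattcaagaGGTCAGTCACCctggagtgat
The cyclic AMP response element TGACGTCA was in none of the 18 windows of the 10 genes and in 1.65% of all windows. Binding and methylation were not measured in these libraries, and a link between the falls in NR1H4 and SLC51B was not tested.

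SLC51B (OSTβ, GRCh38 chr15:65045370-65053396, plus strand, gene position from GENCODE release 29) was the 1 gene of the 4 tested that passed the test. Its FPKM was 4.67, 3.5 and 5.26 in oeNC replicates 1, 2 and 3, and 1.44, 2.34 and 2.07 in oeSTUB1 replicates 1, 2 and 3. The lowest control library was above the highest oeSTUB1 library, so the groups did not overlap. These values rested on 222, 166 and 265 fragments in oeNC and on 68, 106 and 97 in oeSTUB1. The mean fell from 4.48 ± 0.90 to 1.95 ± 0.461 FPKM (SD, n = 3 each), a log2 fold change of -1.17 ± 0.21 (SE, limma adjusted p = 0.0103), or 2.24-fold lower, with a 95% interval of -1.65 to -0.68. A two-sided exact permutation test of 3 libraries against 3 cannot go below p = 0.1, the value it gave.

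The fall in SLC51B did not rest on 1 library. Without oeSTUB1 replicate 2, in which SLC51B stood 0.41 above the other oeSTUB1 libraries on the log2 scale, the log2 fold change was -1.30 (limma adjusted p = 0.00425). Over the 6 fits that left out 1 library each it was between -1.33 and -0.97, with adjusted p of at most 0.0493. In relation to the other listed genes, SLC51B was above 67.3% of them in oeNC and above 57.9% in oeSTUB1. Its last 60 exon bases overlap those of RASL12 on the opposite strand, and RASL12 was listed at 0 in 4 libraries and at 0.0172 FPKM or less in the other 2.

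SLC51A (OSTα, GRCh38 chr3:196211487-196243178), the partner subunit, had no row, so no value can be set beside that of SLC51B.

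SLC4A2 (AE2, GRCh38 chr7:151057210-151076527, plus strand), the exchanger that secretes bicarbonate, was by far the most abundant gene of the set. It made up 87.9% of the summed FPKM of the 9 listed genes in oeNC and 94.1% in oeSTUB1, and it stood above 95.3% of all listed genes in oeNC. Its FPKM was 47.1, 45.2 and 46.0 in oeNC replicates 1 to 3, and 54.6, 52.9 and 56.1 in oeSTUB1 replicates 1 to 3. Every oeSTUB1 library was above every oeNC library. The means were 46.1 ± 0.983 and 54.5 ± 1.62 FPKM (SD, n = 3 each), and the log2 fold change of 0.24 ± 0.069 (SE, 95% interval 0.08 to 0.40) did not pass the test (limma adjusted p = 0.0565). Without oeSTUB1 replicate 2 the log2 fold change was 0.26 and passed (adjusted p = 0.00497), and it also passed after a correction for gene length in each library (0.26, adjusted p = 0.0145). Under quantile normalization it was 0.17 (adjusted p = 0.191). In GENCODE release 29, SLC4A2 shares exon bases with 2 genes on the opposite strand. These are 697 bases with the antisense gene AC010973.2, which had no row, and 319 with CDK5. CDK5 was between 12.4 and 13.9 FPKM in oeNC and between 15.5 and 21.6 FPKM in oeSTUB1 (log2 fold change 0.39 ± 0.14, SE, adjusted p = 0.0979), and whether reads were assigned by strand is not given in the sources used here.

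SLC4A4 (NBCe1, GRCh38 chr4:71062667-71572087, plus strand) brings bicarbonate into epithelial cells together with sodium. Its FPKM was 1.54, 1.40 and 1.73 in oeNC and 1.38, 0.746 and 1.43 in oeSTUB1, in the order of the replicates. The groups overlapped, because oeSTUB1 replicate 3 was above oeNC replicate 2, and the lowest value was that of oeSTUB1 replicate 2. The log2 fold change was -0.41 ± 0.24 (SE, 95% interval -0.96 to 0.14, limma adjusted p = 0.293). Its recovered length of 13322 bases was the longest of the 9 listed genes, and in oeSTUB1 replicate 2 it lay 0.83 below the other oeSTUB1 libraries on the log2 scale. Without that library the log2 fold change was -0.13 (adjusted p = 0.476).

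AQP1 (GRCh38 chr7:30911694-30925516, plus strand), the water channel of the cholangiocyte membrane, was only just above the filter. Its FPKM was 0.220, 0.199 and 0.316 in oeNC and 0.253, 0.175 and 0.213 in oeSTUB1, from 16 to 32 fragments in a library. The groups overlapped. The log2 fold change was -0.13 ± 0.23 (SE, 95% interval -0.65 to 0.39, limma adjusted p = 0.743), so a change of either sign within that interval is not excluded. Without oeNC replicate 3, its highest library, the log2 fold change was 0.01, and without oeSTUB1 replicate 2 it was -0.04 (adjusted p = 0.927). A readthrough gene on the same strand shares exons with AQP1 in GENCODE release 29 and had no row.

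**Figure D2:**
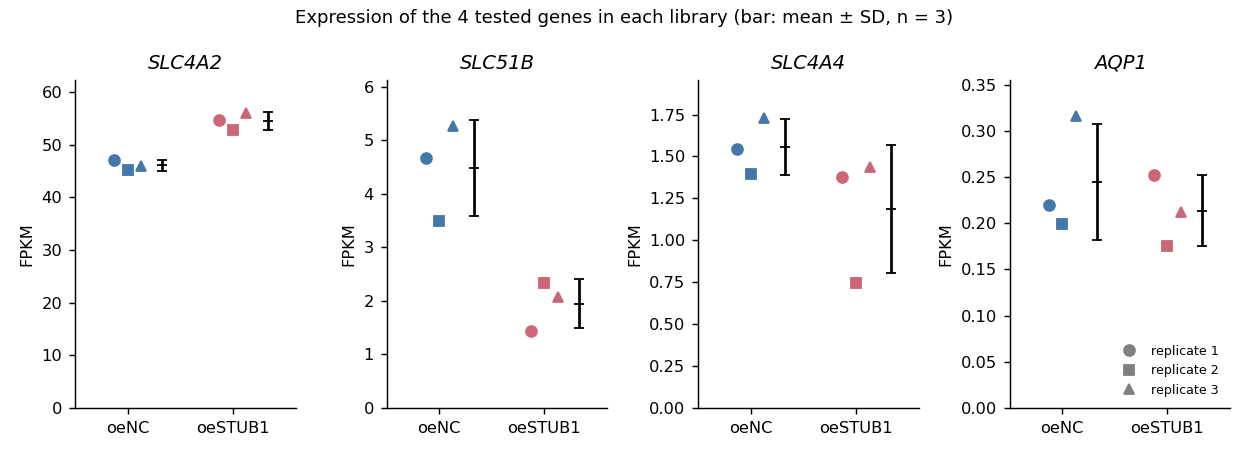
FPKM of SLC4A2, SLC51B, SLC4A4 and AQP1 (vertical axes, each from 0) in every library of oeNC and oeSTUB1. Symbols give the replicate number and bars the mean ± SD of 3 libraries. All 3 oeSTUB1 libraries lie below the oeNC libraries for SLC51B and above them for SLC4A2, and the groups overlap for SLC4A4 and AQP1.

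The remaining 5 genes were listed but were near the limit of detection, and they were not in the main test. Fitted without the filter on low values, none passed (limma adjusted p between 0.525 and 0.858). ANO1 (TMEM16A, GRCh38 chr11:70078302-70189528), the calcium-activated chloride channel, had 4, 2 and 4 fragments in oeNC and 8, 5 and 3 in oeSTUB1. The sums of 10 and 16 fragments gave a ratio of 1.67 per fragment sequenced, with an exact 95% interval of 0.712 to 4.11 that covers counting error only. GPBAR1 (TGR5, GRCh38 chr2:218259496-218263859), the bile acid receptor at the cell surface, had 3, 4 and 1 fragments in oeNC and 3, 1 and 2 in oeSTUB1, a ratio of 0.782 (0.224 to 2.57). The libraries of both genes overlapped between the groups, with a two-sided exact permutation p of 0.3 for ANO1 and 0.8 for GPBAR1.

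SCTR (GRCh38 chr2:119439843-119525301, minus strand), the secretin receptor, had 0, 1 and 4 fragments in oeNC and 0 in each oeSTUB1 library (exact permutation p = 0.4), where 3 fragments, the limit that a count of 0 allows, would be at most 0.0114 FPKM. CFTR (GRCh38 chr7:117465784-117715971) had 0, 0 and 1 fragments in oeNC and 0, 0 and 2 in oeSTUB1. SLC10A2 (ASBT, GRCh38 chr13:103043998-103066846, minus strand), the bile acid importer, had 1 fragment in oeSTUB1 replicate 3 and 0 in the other libraries. Both CFTR and SLC10A2 were under 3 fragments in every library, an amount that corresponds to 0.0149 FPKM or less for CFTR and to 0.0271 FPKM or less for SLC10A2. No change in these 5 genes was detectable at this depth, and none is called absent. Beside SLC4A2, the levels per length of the tested genes followed in the order SLC51B, SLC4A4 and AQP1 in both groups. In oeNC the library values of these genes did not overlap one another, and in oeSTUB1 the lowest SLC51B value of 1.44 FPKM was just above the highest SLC4A4 value of 1.43 FPKM.

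**Figure D3:**
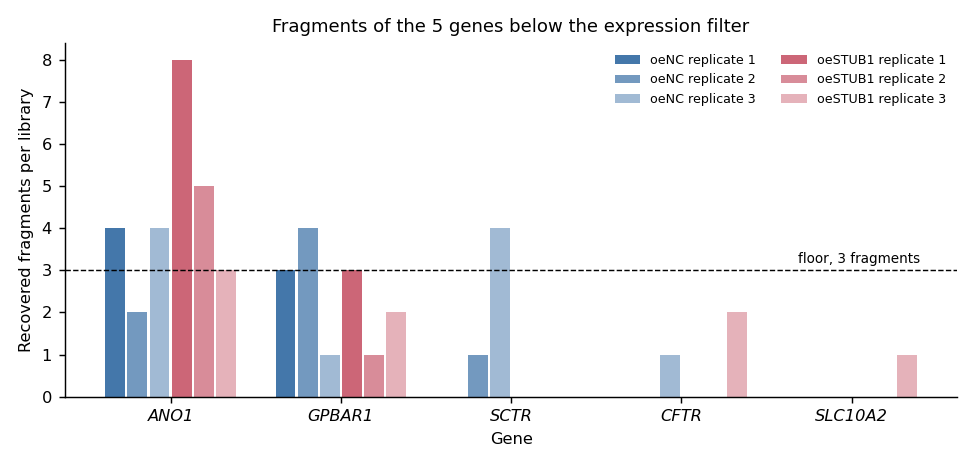
Recovered fragments per library (vertical axis) of the 5 genes below the expression filter in the 3 oeNC and 3 oeSTUB1 libraries, and the dashed line is the floor of 3 fragments. ANO1 reaches 8 fragments in oeSTUB1 replicate 1, and SLC10A2 has 1 fragment in 1 library.

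Other genes of the same pathways were counted in 4 lists that hold 111 genes besides the 10. Of these, 103 were listed and 78 were tested, with 8 higher and 7 lower in oeSTUB1 and a median log2 fold change of -0.04, against a median of 0.02 over all tested genes. That is 10.3% higher and 8.97% lower, beside the 7.01% and 6.59% of all tested genes. The lists were chosen with earlier results of these data known, so their shares are descriptive and not a test. The size of a change in genes of low level depends on the 0.1 added before taking logs. With 1 added instead, the log2 fold changes of the genes described next were -1.74 for PDZK1, -0.78 for NR1H4, -0.51 for ADCY5, -0.41 for SLC4A3, 0.31 for VDR, and 0.32 for AQP9 and KCNMA1, and all 7 still passed the test. Without oeSTUB1 replicate 2 the counts were 15 higher and 11 lower, where all genes called numbered 2274 higher and 1838 lower. Without any 1 of oeNC replicates 1 and 2 and oeSTUB1 replicates 1 and 3 only 3 were higher. In those fits all genes called higher numbered between 477 and 794. The main fit called 1076 of all genes higher and 1012 lower.

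Of the chloride, bicarbonate and proton transport genes, 2 of 30 rose and 2 fell (median log2 fold change -0.01). Both shares were 6.67%, beside 7.01% and 6.59% of all tested genes. NHERF1, listed under its older symbol SLC9A3R1, encodes an apical scaffold that binds CFTR and sodium-proton exchangers. It was at 88.0, 86.1 and 87.6 FPKM in oeNC and at 29.9, 36.0 and 39.0 FPKM in oeSTUB1, with no overlap, and fell by 1.32 on the log2 scale (SE 0.10, limma adjusted p = 0.000313). SLC4A3, another chloride-bicarbonate exchanger of the SLC4A2 family, was between 1.29 and 1.48 FPKM in oeNC and between 0.734 and 0.820 FPKM in oeSTUB1 (log2 fold change -0.73 ± 0.13, SE, adjusted p = 0.0106, or 0.067 without oeNC replicate 2). KCNMA1, a calcium-activated potassium channel, rose from between 0.0340 and 0.0531 FPKM to between 0.233 and 0.384 FPKM (1.47 ± 0.24, adjusted p = 0.00683). It was under 0.1 FPKM in every oeNC library and reached the filter only through oeSTUB1. With 0.01 added its log2 fold change was 2.54. The other riser was KCNN4, another such channel (0.69, adjusted p = 0.0054), which is named here because it completes the count. CA12, a membrane carbonic anhydrase and the most abundant gene of the list in oeNC, had a mean of 163 ± 2.37 FPKM in oeNC and of 154 ± 41.2 FPKM in oeSTUB1 (SD, log2 fold change -0.12 ± 0.18, SE, adjusted p = 0.699), and without oeSTUB1 replicate 2 its value was 0.09.

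Of the other aquaporins, 4 were tested and 1 rose (median log2 fold change -0.08), or 25% beside 7.01% of all tested genes. AQP3, which passes water and glycerol, was the most abundant, at 31.7, 30.9 and 38.3 FPKM in oeNC and at 25.1, 31.5 and 45.9 FPKM in oeSTUB1 (log2 fold change -0.01 ± 0.20, SE, limma adjusted p = 0.971). Its highest and lowest values were both in oeSTUB1. AQP9, a channel for water and small solutes, was at 0.107, 0.117 and 0.285 FPKM in oeNC and at 0.460, 0.449 and 0.464 FPKM in oeSTUB1 (log2 fold change 1.11 ± 0.27, adjusted p = 0.0341). Its call was lost without any 1 of oeNC replicates 1 and 2 and oeSTUB1 replicates 1 and 3, with adjusted p between 0.0821 and 0.126.

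Of the secretin, cyclic AMP and purinergic signalling genes, 2 of 27 rose and 3 fell (median log2 fold change -0.10). These shares, 7.41% and 11.1%, stand beside 7.01% and 6.59% of all tested genes. SCT, the gene of secretin itself, was below the filter. Of the adenylyl cyclases, which make cyclic AMP, ADCY9 was at 13, 13.6 and 13.6 FPKM in oeNC and at 5.30, 3.18 and 5.86 FPKM in oeSTUB1 (log2 fold change -1.52 ± 0.21, SE, limma adjusted p = 0.00306). ADCY5 was between 0.530 and 0.692 FPKM in oeNC and between 0.0768 and 0.169 FPKM in oeSTUB1 (-1.68 ± 0.23, adjusted p = 0.00295). For both, all oeSTUB1 libraries were below all oeNC libraries. Of the other cyclases tested, ADCY7 rose, as given below. ADCY3 and ADCY6, named to complete the family, did not pass (log2 fold changes -0.095 and -0.032, limma adjusted p = 0.483 and 0.876). PDZK1, an apical scaffold of the same kind as NHERF1, had the largest change of the named genes, from 4.52, 4.03 and 3.40 FPKM in oeNC to 0.307, 0.760 and 0.420 FPKM in oeSTUB1 (-2.84 ± 0.27, adjusted p = 0.000642). PDE4B, which breaks down cyclic AMP, rose from a mean of 7.56 ± 1.29 to one of 11.8 ± 1.54 FPKM (SD, n = 3 each), a log2 fold change of 0.64 ± 0.15 (adjusted p = 0.0266). That call was lost in 4 of the 6 fits that left out 1 library (without oeNC replicate 1 or 2, or oeSTUB1 replicate 1 or 3), with adjusted p between 0.0771 and 0.11. The other riser, named because it completes the count, was ADCY7 (0.43, adjusted p = 0.0438). EZR, the link of such scaffolds to actin and the most abundant gene of the list in oeNC, had means of 107 ± 2.08 and 101 ± 4.80 FPKM (SD, log2 fold change -0.08 ± 0.074, SE, adjusted p = 0.526).

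Of the genes of bile acid transport, sensing and synthesis, 3 of 17 rose and 2 fell (median log2 fold change -0.02). The shares were 17.6% and 11.8%, beside 7.01% and 6.59% of all tested genes. NR1H4 (FXR) was at 1.49, 1.48 and 1.53 FPKM in oeNC and at 0.468, 0.364 and 0.560 FPKM in oeSTUB1, and fell by 1.52 on the log2 scale (SE 0.17, limma adjusted p = 0.00125). FGFR4, the receptor of the bile acid-induced hormone FGF19, was at 40.2, 38.5 and 38.6 FPKM in oeNC and at 14.5, 18.1 and 16.7 FPKM in oeSTUB1 (-1.25 ± 0.094, SE, adjusted p = 0.000261).

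SLCO3A1, an organic anion transporter, rose from 2.17, 1.91 and 2.05 FPKM to 5.58, 4.80 and 5.43 FPKM (log2 fold change 1.33 ± 0.11, SE, limma adjusted p = 0.000354). VDR, the vitamin D receptor, which also binds bile acids, was between 0.743 and 0.789 FPKM in oeNC and between 1.03 and 1.31 FPKM in oeSTUB1 (0.56 ± 0.15, adjusted p = 0.0406). That call was lost in 5 of the 6 fits that left out 1 library, all but the one without oeSTUB1 replicate 2, with adjusted p between 0.105 and 0.148. The other riser was SLCO1B1, a bile acid uptake transporter of hepatocytes (0.56, adjusted p = 0.0379), named because it completes the count. ABCC2 (MRP2), an apical exporter of conjugates and the most abundant gene of the list in oeNC, was at 102, 104 and 111 FPKM in oeNC and at 84.0, 58.4 and 90.0 FPKM in oeSTUB1 (-0.47 ± 0.16, adjusted p = 0.0867). The groups did not overlap, and without oeSTUB1 replicate 2, its lowest library, the log2 fold change was -0.28 and passed the test (adjusted p = 0.00963). SLC10A1, the hepatocyte counterpart of SLC10A2, was below the filter.

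**Figure D4:**
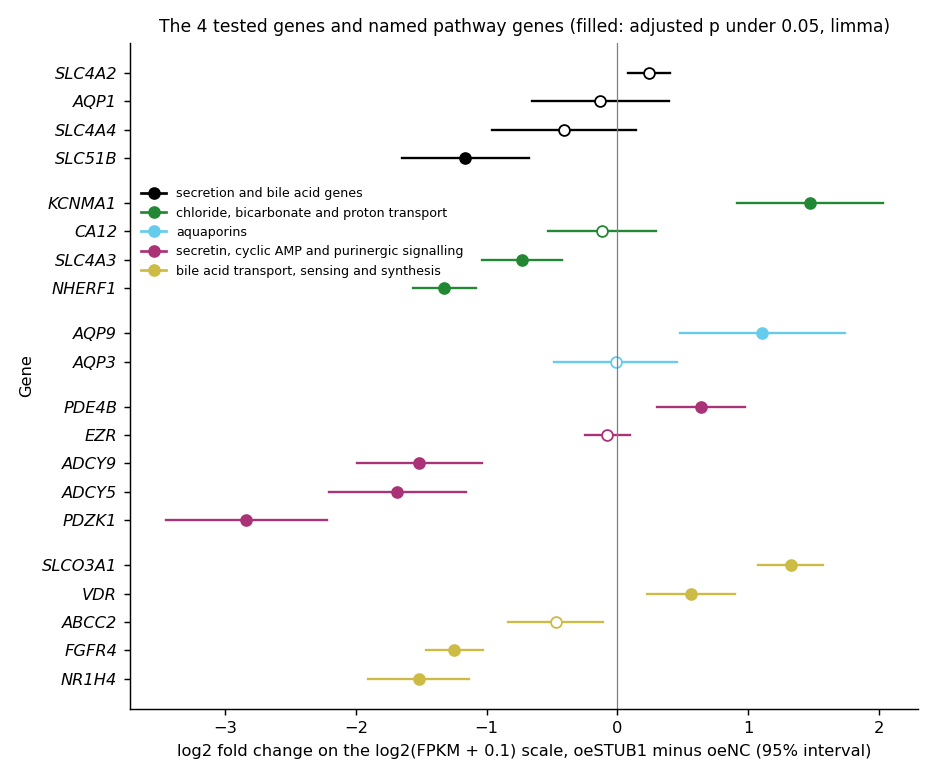
log2 fold change of oeSTUB1 against oeNC on the log2(FPKM + 0.1) scale (horizontal axis, with 95% intervals) for the 4 tested genes and the pathway genes named by rule, coloured by list. Filled points passed an adjusted p of 0.05 (limma). SLC51B is the 1 filled point of the 4, at -1.17, and PDZK1 is lowest, at -2.84.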

How the data were processed

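RNA-seq was analysed in 6 libraries of TFK1 cells, 3 oeNC and 3 oeSTUB1, grouped by their labels. The authors deposited FPKM values for 23569 genes by symbol. The submitters' processing notes name fastp 0.20.1, HISAT2 2.1.0, HTSeq 0.11.2, R 3.2.0, DESeq2 1.22.2 and the build GRCh38.p13, and the annotation and the strand setting are not given in the sources used here. Value columns of no mapped sample numbered 0. FPKM sets a gene's fragments against its length and the library total, so a library with a length bias shifts short and long genes apart.

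Whole fragments were recovered from the steps of the FPKM values, for 23569 genes (100.0%), with a difference of at most 4.9e-06 FPKM on recomputing. If all fragments of a gene share a divisor, its recovered fragments and length are too small by that factor. Fragments on listed genes made up 99.7% of each total. A floor of 3 fragments was used.

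The groups were compared on log2(FPKM + 0.1) by a two-sided moderated linear model (limma 3.58.1, R 4.3.3, eBayes with trend). It was fitted to the 15353 genes whose FPKM averaged 0.1 or more, and p-values were adjusted over all of them by Benjamini-Hochberg. A gene with an adjusted p under 0.05 was called, and rose or fell is written of those genes. Folds on this scale understate changes of low genes. Genes below the filter, and SLC51B, were compared by an exact permutation test (numpy 2.4.6). The exact 95% intervals of fragment ratios are binomial (scipy 1.17.1). Fits were tested on simulated data.

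The 10 genes and the lists were chosen with earlier results of these data known. Named genes were the 10, STUB1 and, from each list, every gene called with a log2 change over 1 in size, the called gene with the largest change not over 1, and the gene with the highest mean FPKM in oeNC. Genes outside this rule are marked as such. Markers are given where a result turns on them. Fixed markers of cholangiocytes, hepatocytes, fibroblasts, leukocytes and endothelium were summed by library. The result of a single marker is not reported here. Upstream windows are RefSeq's, on GRCh38.p14, and all 10 genes matched by symbol. Gene positions are from GENCODE release 29. Amino acid sequences were not used here. Alternatives were other pseudocounts (1 and 0.01), filters, scalings and error models, a replicate block, limma-voom on the fragments, each library left out, and, chosen after seeing the data, a lowess correction for gene length.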

Additional observations from a re-analysis of the deposited data

How the results depend on the processing

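SLC51B was lower at an adjusted p under 0.05 (limma) under all 16 alternatives, with a log2 fold change between -1.33 and -0.89. SLC4A2 was higher under all 16 (0.17 to 0.26) and passed the test under 2, the lowess correction for gene length (0.26, adjusted p = 0.0145) and the fit without oeSTUB1 replicate 2 (0.26, adjusted p = 0.00497), each of which made the count of the 10 genes called higher 1 in place of 0 (0 to 1 over the fits that left out 1 library). With 1 library left out SLC4A2 was between 0.22 and 0.26. SLC4A4 was lower and did not pass under any of the 16. AQP1, lower otherwise, was 0.013 without oeNC replicate 3, and between -0.23 and 0.013 with 1 library left out. With 1 library left out, all genes called higher numbered between 477 and 2274 and all genes called lower between 456 and 1838, with the highest counts in both directions without oeSTUB1 replicate 2. The lowess correction gave 1675 higher and 1647 lower. Pathway genes called higher numbered 3 with no filter, 4 with a filter at a mean FPKM of 1, 12 with the lowess correction, 5 with the replicate block and 3 to 15 with 1 library left out. Pathway genes called lower numbered 14 with the lowess correction and 6 to 11 with 1 library left out. With 1 library left out CA12 was between -0.31 and 0.088, the latter without oeSTUB1 replicate 2. AQP3 was between -0.25 and 0.19, and above 0 without oeNC replicate 3 (0.08), oeSTUB1 replicate 1 (0.19) and oeSTUB1 replicate 2 (0.02). PDE4B also missed the threshold with no filter (adjusted p = 0.053) and without an intensity trend (0.0508), AQP9 with no filter (0.062), VDR with no filter (0.093), and ABCC2 passed it with the lowess correction (0.0117). The cause of these shifts was not tested. Where a fit left out a library, the remaining libraries shared 1 estimate of the spread.

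Deviations of same-numbered libraries correlated weakly, at -0.049, -0.052 and 0.062, and oeNC replicate 1 correlated best with oeSTUB1 replicate 2 (0.11). The length trend of oeSTUB1 replicate 2 is part of these deviations, so a pairing by replicate number is not excluded. With the replicate block, 741 genes were called higher and 747 lower, SLC51B stayed called (adjusted p = 0.019), SLC4A2 was at an adjusted p of 0.146, and VDR missed the threshold (0.0909). Depth limits ANO1, GPBAR1, SCTR, CFTR and SLC10A2, with 0 to 8 fragments a library, and AQP1, with 16 to 32.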

Other observations

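Summed fibroblast markers were between 1.31 and 2.36 FPKM in oeNC and between 2.16 and 4.05 FPKM in oeSTUB1, mostly from COL1A1. None of the 2 tested passed an adjusted p under 0.05 (limma). Summed leukocyte markers were between 32.6 and 34.8 FPKM in oeNC and between 25.9 and 26.9 FPKM in oeSTUB1, mostly from CD68, a lysosomal protein that epithelial cell lines also express, which fell (log2 fold change -0.50 ± 0.067, SE; limma adjusted p = 0.00303). PTPRC, the defining leukocyte marker, was at 0.280 FPKM or less in every library. Summed endothelial markers were at 0.231 FPKM or less in every library. Their part in the result for SLC51B was not tested.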
